A study of Mus musculus with 12 samples.

Results

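The genes described here carry glucose into the cell, break it down to pyruvate and lactate, export the lactate, and run the pentose phosphate side branch. They were chosen by name as 36 genes: sugar transporters (Slc2a1, Slc2a3, Slc2a6), the enzymes and regulators of glycolysis from hexokinase to pyruvate kinase, lactate dehydrogenases and monocarboxylate transporters, pyruvate dehydrogenase and its kinases, pentose phosphate enzymes, and Hif1a. Every probe set annotated to 1 of these symbols was taken, also where it listed several symbols. Of the 36 genes, 33 had at least 1 probe set, 78 probe sets together, and 32 had a tested probe set naming that gene alone, among 18193 such genes in all. Gapdh had shared and control probe sets only, and Gpi1, Eno1 and G6pdx were not analysed here.

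Glycolysis splits glucose into pyruvate with a small yield of ATP, and its intermediates feed the synthesis of nucleotides, serine and lipids. Hexokinases trap glucose as glucose 6-phosphate, phosphofructokinase sets much of the pace, and lactate dehydrogenase A turns pyruvate into lactate and so regenerates NAD, while monocarboxylate transporters carry the lactate out. The pentose phosphate pathway draws on glucose 6-phosphate to make NADPH and ribose. Resting B cells are small and take up little glucose, and B cells activated through Toll-like receptors or the antigen receptor enlarge, divide and raise glucose use; Myc and HIF-1 are known activators of many of these genes.

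RNA came from B cells taken from the spleens of wild type mice or of mice transgenic for EFLmDREAM, a transgene of the calcium-binding transcriptional repressor DREAM, whose own gene is Kcnip3. Cells were isolated from spleen by negative selection with CD43 beads and were either unstimulated (day 0) or kept for 2 days in medium with lipopolysaccharide (LPS, 20 µg/ml), a ligand of TLR4, and interleukin 4 (IL-4, 10 ng/ml). The groups were unstimulated wild type, unstimulated transgenic, stimulated wild type and stimulated transgenic, with 3 arrays each from independent biological replicates per the series' design text, 12 arrays in all. The promoter driving the transgene, and the age of the mice, are not given in the sources used here. No group was cultured without LPS and IL-4, so culture and stimulation cannot be told apart.

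Array medians on the log2 scale lay between 5.97 and 6.05 at day 0 and between 5.37 and 5.41 at day 2, and arrays of a group correlated at 0.984 to 0.997. Replicate 1 of unstimulated wild type stood apart in RNA quality: its actin control read 2.22 lower at the 5′ than at the 3′ end on the log2 scale (5′ minus 3′ of −2.22), against −0.67 to −0.54 in the other day 0 arrays. At day 2 replicate 1 of wild type read −1.36 and the other arrays −0.98 to −0.43. Single member probe sets were low in the first of these arrays, such as a Hif1a probe set at 4.86 and 6.55 to 7.22 in the other day 0 arrays. The brighter Kcnip3 probe set read 6.71 to 7.19 in wild type and 7.0 to 7.28 in transgenic arrays at day 0 (difference 0.23 ± 0.12, SE, limma adjusted p = 0.279), and whether it covers the transgene is not given. Of 12 B cell markers 10 were measured, with array means of 11.57 to 11.76 in unstimulated wild type and 11.65 to 11.68 in unstimulated transgenic cells. Markers of other cells were higher in unstimulated transgenic arrays: 12 of 13 granulocyte markers (array means 6.19 to 6.35 in wild type, 8.84 to 9.24 in transgenic), 12 of 14 macrophage and monocyte markers (6.99 to 7.22, 8.17 to 8.44), 7 of 9 erythroid markers (5.96 to 6.45, 7.18 to 7.62), 4 of 12 T and NK cell markers and 8 of 10 plasma cell markers. In such bulk samples, fewer cells of a type and less RNA per cell cannot be told apart.

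Most of the measured glycolytic and pentose phosphate genes rose with stimulation in both genotypes. In wild type cells 22 of 32 genes rose and 4 fell (limma, adjusted p under 0.05 over 45037 probe sets), where 36% of all 18193 genes were called higher and 24% lower. In transgenic cells 21 rose and 5 fell, where 35.2% of all genes were called higher and 23.3% lower. The median change of the 32 genes was 0.50 on the log2 scale in wild type and 0.68 in transgenic cells, against 0.080 and 0.083 over all genes. The genes called higher in both genotypes numbered 20, those called lower in both 4, and none was called in opposite directions. Such joint shares over all genes were not computed. Without replicate 1 of unstimulated wild type 26 members were again called in wild type. Marker lists moved over the same days: 9 of 10 B cell markers fell in each genotype (array means of 9.90 to 10.03 in wild type and 10.06 to 10.08 in transgenic cells at day 2). In wild type 8 of 13 granulocyte, 9 of 14 macrophage and 5 of 9 erythroid markers fell, and in transgenic cells all 13, 13 of 14 and 7 of 9 fell. Their part in the members' changes was not tested.

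These changes are on values quantile-normalized over the 12 arrays, because the deposited distributions differed between the days; readings of single arrays are given as deposited. On deposited values 19 members rose and 8 fell in wild type and 18 and 11 in transgenic cells. With each array's median subtracted 26 rose and 2 fell in either genotype. Shares of all genes called on these 2 scalings, or on all 3, were not computed. The median change of all probe sets was −0.40 in both genotypes as deposited, 0.037 and 0.040 after quantile normalization, and 0.22 and 0.24 after median subtraction. Among the 4251 probe sets brighter than 9.04, the members' median level, these medians were 0.23 and 0.22 as deposited. They were 0.10 and 0.11 after quantile normalization, and 0.85 and 0.86 after median subtraction. Bright probe sets therefore lay above all probe sets both as deposited and with medians subtracted, and by less after quantile normalization. On all 3 scalings and in both genotypes 17 genes rose: Slc2a6, Hk2, Pfkl, Pfkp, Aldoa, Tpi1, Pgk1, Pgam1, Pkm, Ldha, Slc16a1, Pdk3, Pdha1, Pgd, Rpia, Rpe and Tkt. Only Slc2a3 and Pfkfb4 fell on all 3 in both genotypes. For 8 genes, Slc2a1, Hk3, Pfkm, Pfkfb3, Aldoc, Ldhb, Taldo1 and Hif1a, calls in both directions occurred over the 3 scalings and both genotypes. For Hk3 alone these were a rise in wild type and a fall in transgenic cells. For the others 2 scalings called opposite directions within at least 1 genotype.

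**Figure D1:**
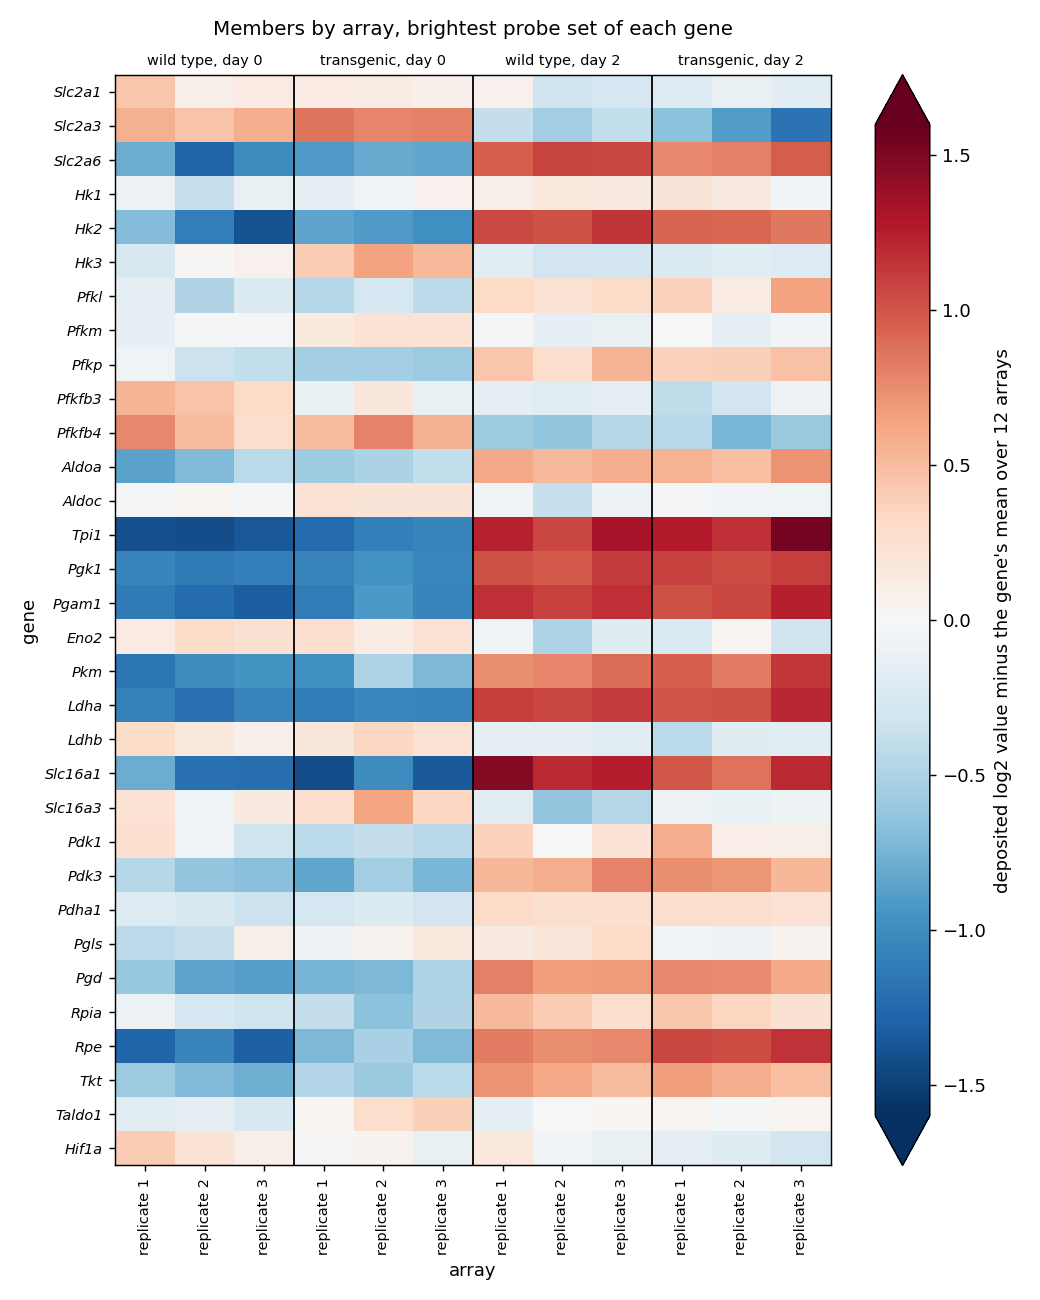
Deposited log2 value of the 32 members (rows, by role) in each of the 12 arrays (columns, by genotype and day), each row drawn as the difference from its own mean over the 12 arrays. Most enzymes from Aldoa to Ldha were higher in the 6 stimulated arrays, and Slc2a3 and Pfkfb4 were lower there.

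Sequence before the start sites of these genes was examined because HIF-1 and MYC, known activators of glycolytic genes, bind short motifs. Promoters were taken from RefSeq (GRCm38.p6) as the 250 bases before a gene's start, and 35 of the 36 genes matched, with 49 promoters. ACGTG, the core of the HIF response element, was searched on both strands. CACGTG, the E-box bound by MYC and MAX, contains ACGTG on both strands and so counts as 2 matches to it. ACGTG occurred in 17 of 49 member promoters (34.7%, from 14 genes) and in 16.6% of 32851 promoters in all. CACGTG occurred in 5 (10.2%) against 6.02% in all, and GGGCGG, the GC box, in 28 (57.1%) against 32.7%. A promoter with ACGTG belonged to 9 of the 20 genes that rose in both genotypes, to 2 of 3 with a promoter that fell in both, and to 3 of the other 8. A match is a description of the letters and not a bound site.

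The first 4 promoters below were chosen as promoters with a match among genes with large rises, and the fifth, of Slc2a1, as 1 with a match in a gene called lower on quantile-normalized values. The promoter of Tpi1, whose rise was larger than those of Ldha and Pgk1 on all 3 scalings, is shown as 1 without a match, and those of Slc2a6 and Rpe held none either. Each is read 5′ to 3′ along the gene and ends at the base before its start, and capitals mark ACGTG or, on the other strand, CACGT. Ldha lies on the plus strand at chr7:46845554-46845803, with 5 matches, Pgk1 on the plus strand at chrX:106186850-106187099, with 2, and Slc16a1 on the plus strand at chr3:104638414-104638663, with 2. Hk2 lies on the minus strand at chr6:82774455-82774704, with 2 matches, and Slc2a1 on the plus strand at chr4:119108495-119108744, with 1. Tpi1 lies on the minus strand at chr6:124814159-124814408, with 0.
Ldha: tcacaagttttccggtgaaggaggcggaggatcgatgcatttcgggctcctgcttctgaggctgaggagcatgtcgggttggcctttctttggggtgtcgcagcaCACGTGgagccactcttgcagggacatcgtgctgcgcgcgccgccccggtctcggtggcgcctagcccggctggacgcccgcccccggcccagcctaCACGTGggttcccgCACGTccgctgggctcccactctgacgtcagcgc
Pgk1: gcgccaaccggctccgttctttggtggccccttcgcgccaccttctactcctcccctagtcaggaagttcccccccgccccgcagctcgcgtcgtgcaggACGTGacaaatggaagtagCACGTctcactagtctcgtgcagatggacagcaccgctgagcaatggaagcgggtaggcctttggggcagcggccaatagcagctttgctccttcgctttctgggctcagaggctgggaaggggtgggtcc
Slc16a1: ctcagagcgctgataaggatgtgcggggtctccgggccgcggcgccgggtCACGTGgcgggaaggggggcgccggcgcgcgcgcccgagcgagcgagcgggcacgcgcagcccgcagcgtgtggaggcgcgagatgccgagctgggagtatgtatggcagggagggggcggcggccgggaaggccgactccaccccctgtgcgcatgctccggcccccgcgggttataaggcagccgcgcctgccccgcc
Hk2: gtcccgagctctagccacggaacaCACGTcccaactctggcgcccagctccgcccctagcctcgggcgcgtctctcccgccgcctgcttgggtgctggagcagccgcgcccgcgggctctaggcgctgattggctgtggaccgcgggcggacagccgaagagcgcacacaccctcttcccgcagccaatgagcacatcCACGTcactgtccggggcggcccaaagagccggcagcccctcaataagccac
Slc2a1: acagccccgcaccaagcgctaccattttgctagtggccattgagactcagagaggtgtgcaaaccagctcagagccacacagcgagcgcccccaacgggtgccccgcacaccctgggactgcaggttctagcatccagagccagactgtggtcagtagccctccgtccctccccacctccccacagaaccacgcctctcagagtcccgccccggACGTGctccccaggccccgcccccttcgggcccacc
Tpi1: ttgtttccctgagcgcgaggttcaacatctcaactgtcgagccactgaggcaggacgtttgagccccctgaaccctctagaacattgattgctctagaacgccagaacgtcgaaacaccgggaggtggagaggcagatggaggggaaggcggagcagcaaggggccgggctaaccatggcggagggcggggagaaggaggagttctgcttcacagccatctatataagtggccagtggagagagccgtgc
The E-box CACGTG stood in the Ldha promoter 2 times and in the Slc16a1 promoter 1 time. The second RefSeq promoter of Ldha, further along the gene, held none of the 3 motifs.

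Of the sugar transporters, Slc2a6 rose and Slc2a3 fell. Slc2a6, a transporter located mainly on lysosomes, read 7.06, 6.58 and 6.84 in unstimulated and 8.81, 8.94 and 8.92 in stimulated wild type arrays, and 6.95, 7.05 and 7.02 against 8.63, 8.66 and 8.82 in transgenic arrays. Every stimulated array lay above every unstimulated one, and the genotypes overlapped on both days. The rise was 2.37 ± 0.11 in wild type (5.16-fold, limma adjusted p = 1.03e-09) and 2.07 ± 0.11 in transgenic cells (4.21-fold, 4.06e-09). Slc2a1, the widely expressed glucose transporter GLUT1, changed by −0.47 ± 0.11 and −0.37 ± 0.11 on quantile-normalized values (adjusted p = 0.00231 and 0.0113) and by 0.22 and 0.36, the opposite way, with array medians subtracted.

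Slc2a3 encodes GLUT3, a glucose transporter of high affinity. It read 10.34, 10.22 and 10.35 in unstimulated wild type arrays and 9.39, 9.21 and 9.38 after stimulation. In transgenic arrays it read 10.63, 10.55 and 10.58 before and 9.11, 8.87 and 8.59 after. The stimulated arrays lay below the unstimulated ones in both genotypes, with transgenic arrays above wild type at day 0 and below them at day 2, without overlap. Such a lack of overlap between genotypes was found for 25.4% of all genes at day 0 and 22% at day 2. From day 0 to day 2 Slc2a3 fell 2.13-fold in wild type (−1.09 ± 0.11, limma adjusted p = 1.27e-06) and 3.52-fold in transgenic cells (−1.82 ± 0.11, 1.09e-08). A second bright probe set fell by 0.88 and 1.45. Of its dimmer sets, 1 rose in wild type by 0.37 (adjusted p = 0.0436) and did not pass in transgenic cells (−0.26), and the other fell by 0.36 in transgenic cells and changed by −0.20 in wild type (adjusted p = 0.113). The bright sets are of the kinds that may also match other transcripts.

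At the first step, Hk2, the inducible hexokinase bound to mitochondria, rose strongly. It read 7.84, 7.42 and 7.14 in unstimulated and 9.59, 9.55 and 9.67 in stimulated wild type arrays, and 7.69, 7.63 and 7.55 against 9.46, 9.45 and 9.38 in transgenic arrays. Stimulated arrays lay above all unstimulated ones, and at day 2 the transgenic arrays lay just below the wild type arrays, a difference that was not called. The rise was 2.35 ± 0.13 (5.08-fold, limma adjusted p = 8.48e-09) in wild type and 2.03 ± 0.13 (4.08-fold, 3.71e-08) in transgenic cells. Hk1, the constitutive hexokinase, rose in wild type by 0.43 ± 0.10 (adjusted p = 0.00339), and its change of 0.19 ± 0.10 in transgenic cells did not pass (0.137). Hk3, a hexokinase best known from myeloid cells, changed by 0.35 in wild type (adjusted p = 0.00704), by −0.21 in the same cells on deposited values, and by −0.17 in transgenic cells (0.149), where the deposited values gave a called fall of −0.72 (1.79e-05), while its second probe set fell by 0.66 and 1.00.

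Phosphofructokinase commits sugar to glycolysis, and 2 of its 3 subunit genes rose on all scalings. Pfkl, the liver-type subunit, rose by 0.69 ± 0.12 in wild type (limma adjusted p = 0.000263) and 0.87 in transgenic cells (3.35e-05), and Pfkp, the platelet-type subunit, by 0.71 (1.34e-05) and 1.01 (5.26e-07). Both also had a probe set called in the other direction in each genotype. These sets were dimmer, with group means of 4.83 to 6.06 for Pfkl and 4.88 to 5.97 for Pfkp. The muscle-type subunit Pfkm changed by 0.54 and 0.35 on quantile-normalized and by −0.03 and −0.26 on deposited values. Of the bifunctional enzymes that make and remove the activator fructose 2,6-bisphosphate, Pfkfb4 fell by 0.54 ± 0.12 in wild type (adjusted p = 0.00181) and by 0.73 in transgenic cells (0.000189) on all 3 scalings. Pfkfb3 changed by −0.046 in wild type (0.73) and 0.36 in transgenic cells (0.0103) on quantile-normalized values, and by −0.59 (0.000191) and −0.24 (0.0477), both called lower, on deposited ones.

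From aldolase to pyruvate kinase, Aldoa, Tpi1, Pgk1, Pgam1 and Pkm rose in both genotypes on all 3 scalings, and Aldoc and Eno2 did not. Tpi1, which interconverts the 3-carbon sugars, read 8.91, 8.90 and 8.96 in unstimulated and 11.55, 11.39 and 11.63 in stimulated wild type arrays, and 9.07, 9.22 and 9.26 against 11.58, 11.49 and 11.85 in transgenic arrays. Pgk1, which makes the first ATP of the pathway, read 10.49, 10.41 and 10.45 against 12.56, 12.52 and 12.66 in wild type and 10.47, 10.57 and 10.50 against 12.63, 12.58 and 12.65 in transgenic arrays. Pgam1, the phosphoglycerate mutase, read 8.81, 8.71 and 8.63 against 11.11, 11.04 and 11.12 in wild type and 8.83, 9.03 and 8.89 against 10.97, 11.01 and 11.19 in transgenic arrays. In all 3 genes the stimulated arrays were far above the unstimulated ones, and the genotypes overlapped at day 2. At day 0 the transgenic arrays of Tpi1 and Pgam1 lay just above the wild type arrays; these differences were not called on deposited values and were called on quantile-normalized ones (0.36, adjusted p = 0.0403, and 0.29, 0.0274).

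The rises were 2.50 ± 0.10 in wild type (5.66-fold, limma adjusted p = 3.62e-10) and 2.25 in transgenic cells (4.76-fold, 1.09e-09) for Tpi1. For Pgk1 they were 1.98 ± 0.074 (3.96-fold, 1.82e-10) and 1.94 (3.84-fold, 2.68e-10), and for Pgam1 2.33 ± 0.076 (5.03-fold, 6.06e-11) and 2.01 (4.04-fold, 2.34e-10). Pkm, pyruvate kinase of proliferating and many adult tissues, read 9.79, 9.94 and 10.00 against 11.69, 11.73 and 11.85 in wild type and 9.97, 10.46 and 10.23 against 11.91, 11.77 and 12.08 in transgenic arrays. Its genotypes overlapped on both days, and it rose 3.13-fold (1.65 ± 0.12, adjusted p = 1.12e-07) and 2.69-fold (1.43, 4.79e-07). The aldolase Aldoa rose by 0.95 (5.87e-06) and 0.77 (4.49e-05), although 1 of its 5 probe sets fell by 0.35 and 0.24. The brain-type aldolase Aldoc changed by 0.40 and 0.33, against −0.17 and −0.27 on deposited values.

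Gapdh, the glyceraldehyde 3-phosphate dehydrogenase, could be read only from 3 probe sets that list further symbols and from 3 array controls. The shared sets rose by 1.37, 1.39 and 1.31 in wild type and by 1.14, 1.37 and 1.19 in transgenic cells. The 5′ control set read 9.61 in replicate 1 of unstimulated wild type, 11.43 to 12.03 in the other day 0 arrays and 13.16 to 13.43 at day 2. Eno2, the neuronal enolase, was dim, with a group mean of 4.42 in unstimulated and 3.95 in stimulated wild type arrays, and did not pass in either genotype (−0.03 and 0.05).

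Among the lactate genes, Ldha and Slc16a1 rose in both genotypes. Ldha, the dehydrogenase subunit that favours lactate, read 9.97, 9.86 and 9.99 against 12.16, 12.12 and 12.17 in wild type and 9.93, 10.00 and 9.99 against 12.06, 12.07 and 12.26 in transgenic arrays. Slc16a1, the monocarboxylate transporter MCT1, read 8.06, 7.66 and 7.65 against 10.33, 10.05 and 10.12 in wild type and 7.44, 7.85 and 7.52 against 9.85, 9.73 and 10.05 in transgenic arrays. For both genes the days were far apart and the ranges of the genotypes met or overlapped. Ldha rose 4.03-fold (2.01 ± 0.077, limma adjusted p = 2.09e-10) and 3.71-fold (1.89, 4.2e-10), and Slc16a1 rose 5.72-fold (2.52 ± 0.14, 5.96e-09) and 5.52-fold (2.46, 8.32e-09). Ldhb, the subunit favouring pyruvate, changed by 0.14 (adjusted p = 0.16) and −0.011 (0.921), and the hypoxia-inducible exporter Slc16a3 (MCT4) by 0.092 and 0.13, none of which passed. As deposited, that Ldhb set was called lower in both genotypes (−0.34 and −0.52), and with medians subtracted higher in wild type (0.28). Of the dimmer Ldhb sets, 1 fell in both genotypes (−0.31, limma adjusted p = 0.0335, and −0.42, 0.00675). Another fell in transgenic cells alone (−0.40, 0.0052), and the last passed in neither.

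At the entry to mitochondria, Pdha1, the catalytic subunit of pyruvate dehydrogenase, rose by 0.43 (limma adjusted p = 5.87e-05) and 0.38 (0.000202). Pdk3, a kinase that switches pyruvate dehydrogenase off, read 8.01, 7.84 and 7.80 against 9.0, 9.05 and 9.26 in wild type and 7.64, 7.91 and 7.74 against 9.22, 9.18 and 9.0 in transgenic arrays. Its days did not overlap, its genotypes did, and it rose 2.67-fold (1.42 ± 0.096, 4.1e-08) and 3.02-fold (1.59, 1.55e-08). Pdk1, the kinase known as a HIF-1 target, gave no single direction: its brightest probe set rose by 0.45 ± 0.14 (0.0155) and 0.95 (7.93e-05), another fell by 1.10 and 0.74, and the median of its sets was −0.29 in wild type.

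Of the 6 pentose phosphate members tested, Pgd, Rpia, Rpe and Tkt rose in both genotypes, and Pgls and Taldo1 did not. Pgd, which makes NADPH in the oxidative arm, rose 2.40-fold in wild type (1.26 ± 0.10, limma adjusted p = 1.89e-07) and by 1.08 in transgenic cells (9.43e-07). Rpe, the epimerase of the non-oxidative arm, read 7.50, 7.72 and 7.47 against 9.60, 9.52 and 9.55 in wild type and 8.06, 8.26 and 8.07 against 9.85, 9.82 and 9.93 in transgenic arrays, with no overlap between days or genotypes. It rose 4.55-fold (2.19 ± 0.084, 2.29e-10) and 3.57-fold (1.83, 1.26e-09), as did a second probe set by 1.14 and 1.12. The other probe set of Rpe, dim at group means of 3.19 to 3.83, fell by 0.32 and 0.39. With medians subtracted that set was not called in either genotype. Rpia, the ribose 5-phosphate isomerase, rose by 0.39 (0.00628) and 0.60 (0.000287), and the transketolase Tkt by 1.14 ± 0.089 (1.5e-07) and 0.91 (1.44e-06). Taldo1, the transaldolase, changed by −0.082 in wild type (0.479) and −0.49 in transgenic cells (0.00063), and by 0.76 and 0.42 with medians subtracted. Pgls, the lactonase, did not pass in either genotype (0.30, adjusted p = 0.0849, and −0.27, 0.12). With the replicate number as a block it was called higher in wild type (limma adjusted p = 0.0306) and lower in transgenic cells (0.0483). On deposited values it was called higher in wild type (0.44, 0.00483), and with medians subtracted in both genotypes (1.06 and 0.56).

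Hif1a encodes the oxygen-regulated subunit of HIF-1, whose level is set mainly by protein stability. Its brightest probe set read 10.51, 10.32 and 10.20 against 10.27, 10.06 and 9.99 in wild type and 10.07, 10.16 and 9.98 against 9.96, 9.91 and 9.81 in transgenic arrays. The days overlapped in wild type and not in transgenic arrays. Its change was −0.42 (limma adjusted p = 0.00229) and −0.33 (0.0126) on quantile-normalized values and 0.38 and 0.46 with medians subtracted, and a second probe set rose by 0.33 and 0.65. No direction of Hif1a with stimulation was therefore settled.

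**Figure D2:**
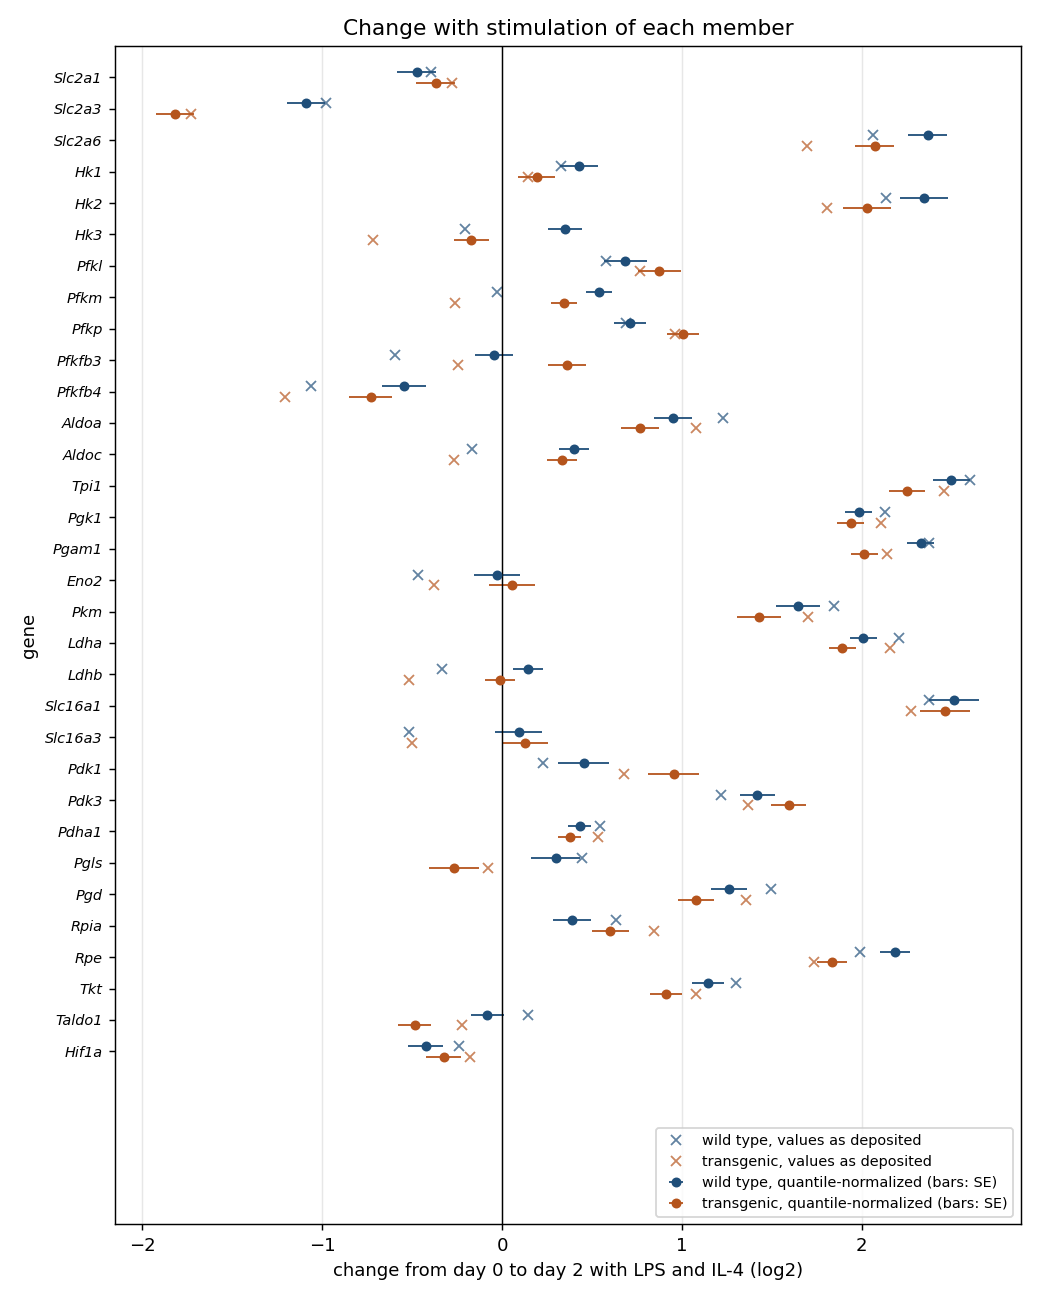
Change of each member from day 0 to day 2 (log2, horizontal axis) in wild type and transgenic cells, as circles with SE bars on quantile-normalized values and as crosses on deposited values. Slc16a1, Tpi1, Slc2a6, Hk2 and Pgam1 rose by 2.01 to 2.52 in both genotypes, Slc2a3 fell by 1.09 and 1.82, and for Pfkm and Aldoc the crosses lie on the other side of 0.

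Several probe sets per gene allow a check within genes. Of the 75 member probe sets tested, 45 rose and 14 fell with stimulation in wild type (78.7% called, against 56.8% of all probe sets), and 43 rose and 18 fell in transgenic cells (81.3%, against 55.2%). Opposite calls among a gene's own probe sets occurred in both genotypes for Pfkl, Pfkp, Aldoa, Pdk1, Rpe and Hif1a, and in wild type also for Slc2a3 and Hk3. These genes' probe sets share a target gene and are not replicates of each other. The falling sets of Pfkl, Pfkp and Rpe were the dimmest of each gene.

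**Figure D3:**
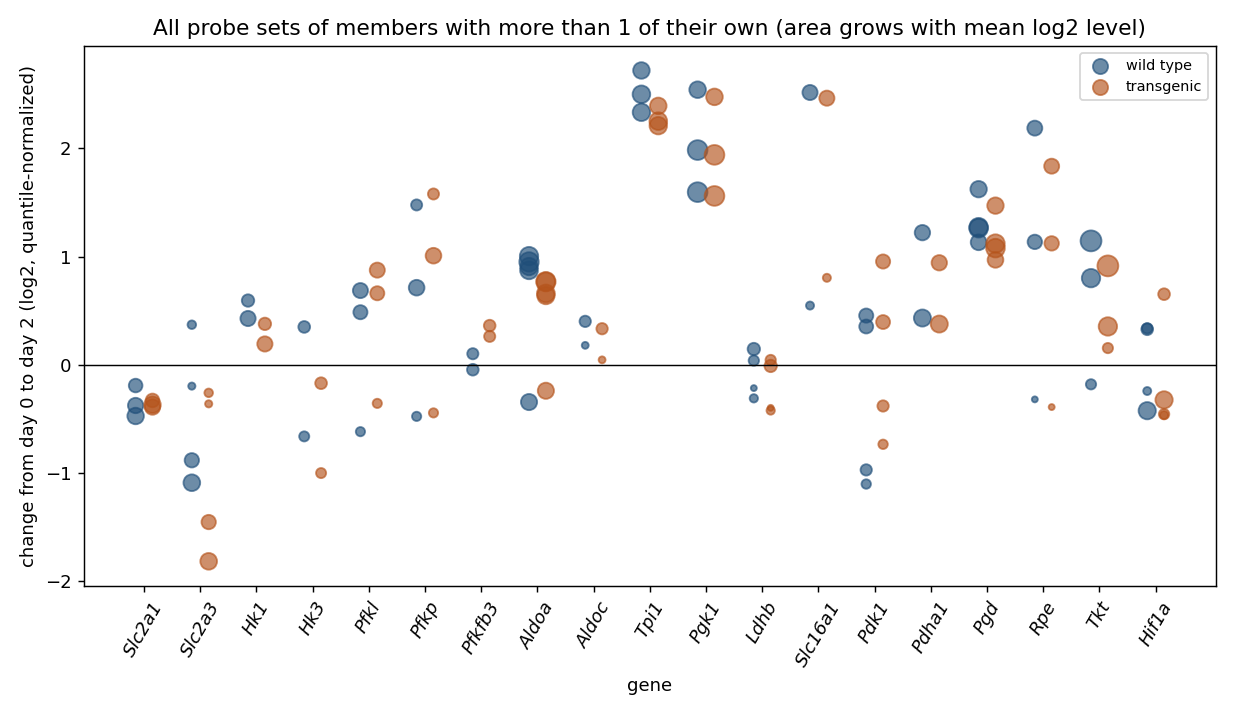
Change with stimulation (log2, quantile-normalized, vertical axis) of every probe set of the members with more than 1 probe set of their own (horizontal axis), in wild type and transgenic cells, with point area growing with the mean level. The spread within Pdk1, Rpe and Hif1a crosses 0, and the 4 probe sets of Pgd lie together above 0.

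Between the genotypes at day 0, 5 of 32 members differed. In transgenic cells Hk3, Rpe, Taldo1 and Pfkm were higher and Pfkfb3 was lower (limma, adjusted p under 0.05), where 5.45% of all genes were called higher and 4.9% lower. At an unadjusted p under 0.05 the count was 17, and the share of all genes at that threshold was not computed. The median difference of the 32 genes was 0.14, against 0.013 over all genes. The differences were at most 1.49-fold, and the granulocyte, macrophage, erythroid and plasma cell markers given above were higher in the same transgenic arrays; their part in these differences was not tested. The day 0 arrays also enter the stimulation changes, so the day 0 differences and those changes are not independent.

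Hk3 read 6.62, 6.90 and 6.95 in wild type and 7.28, 7.52 and 7.40 in transgenic arrays at day 0. All transgenic arrays were higher, by 0.58 ± 0.096 (1.49-fold, limma adjusted p = 0.00248), and its second probe set was higher by 0.47. At day 2 the arrays overlapped, at 6.71, 6.57 and 6.57 in wild type and 6.65, 6.71 and 6.68 in transgenic cells (0.063, adjusted p = 0.915). Rpe, with the day 0 values given above, was higher by 0.57 ± 0.086 (1.48-fold, 0.00133), while its second probe set differed by 0.063. Hk3 and Rpe were called at day 0 under all 20 alternative settings, and without replicate 1 of unstimulated wild type the differences were 0.475 and 0.535.

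Taldo1 read 10.53, 10.54 and 10.44 in wild type and 10.72, 10.98 and 11.07 in transgenic arrays at day 0. The groups did not overlap and differed by 0.42 ± 0.092 (1.34-fold, limma adjusted p = 0.0134), whereas at day 2 the values of 10.54, 10.69 and 10.72 and of 10.72, 10.66 and 10.73 did overlap. Pfkm read 6.44, 6.55 and 6.56 in wild type and 6.73, 6.80 and 6.79 in transgenic arrays, without overlap (0.26 ± 0.073, 1.20-fold, 0.044; 0.22, 0.0725 on quantile-normalized values), and at day 2 it overlapped at 6.56, 6.44 and 6.46 against 6.58, 6.43 and 6.53. Pfkfb3, which raises fructose 2,6-bisphosphate, read 7.37, 7.29 and 7.14 in wild type and 6.72, 7.01 and 6.71 in transgenic arrays, all lower (−0.45 ± 0.10, 1.37-fold, 0.0172). Its day 2 readings of 6.69, 6.66 and 6.67 and of 6.43, 6.53 and 6.75 overlapped, and its second probe set differed by −0.0067 at day 0.

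Slc16a3 read 6.24, 5.93 and 6.15 in wild type and 6.27, 6.63 and 6.33 in transgenic arrays at day 0, and 5.83, 5.38 and 5.55 against 5.92, 5.88 and 5.92 at day 2. The transgenic arrays were higher on both days, by 0.30 and 0.32, and neither difference passed (limma adjusted p = 0.157 and 0.321). Other members differed at day 0 in single probe sets. A second probe set of Hif1a was lower in transgenic cells, at 7.42, 7.15 and 7.17 against 6.59, 6.77 and 6.31 (−0.69, limma adjusted p = 0.00282), while the brightest differed by −0.27 ± 0.099 (0.109). A second Tkt probe set was higher by 0.42 (0.0199), a dim Slc2a3 set by 0.63 (0.0166), and a Pdk1 set was lower (−0.52, 0.0196). Over the 75 member probe sets 7 were higher and 3 lower (13.3%, against 9.45% of all probe sets).

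The day 0 count depended on single arrays. It was 4 without replicate 1 of unstimulated wild type, where Pfkfb3 (adjusted p = 0.0558) and Pfkm (0.135) were lost and Hk2 was gained (0.34, 0.0464). It was 3 without replicate 2 and 9 without replicate 3 of unstimulated wild type, and 2 without replicate 3 of unstimulated transgenic cells.

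**Figure D4:**
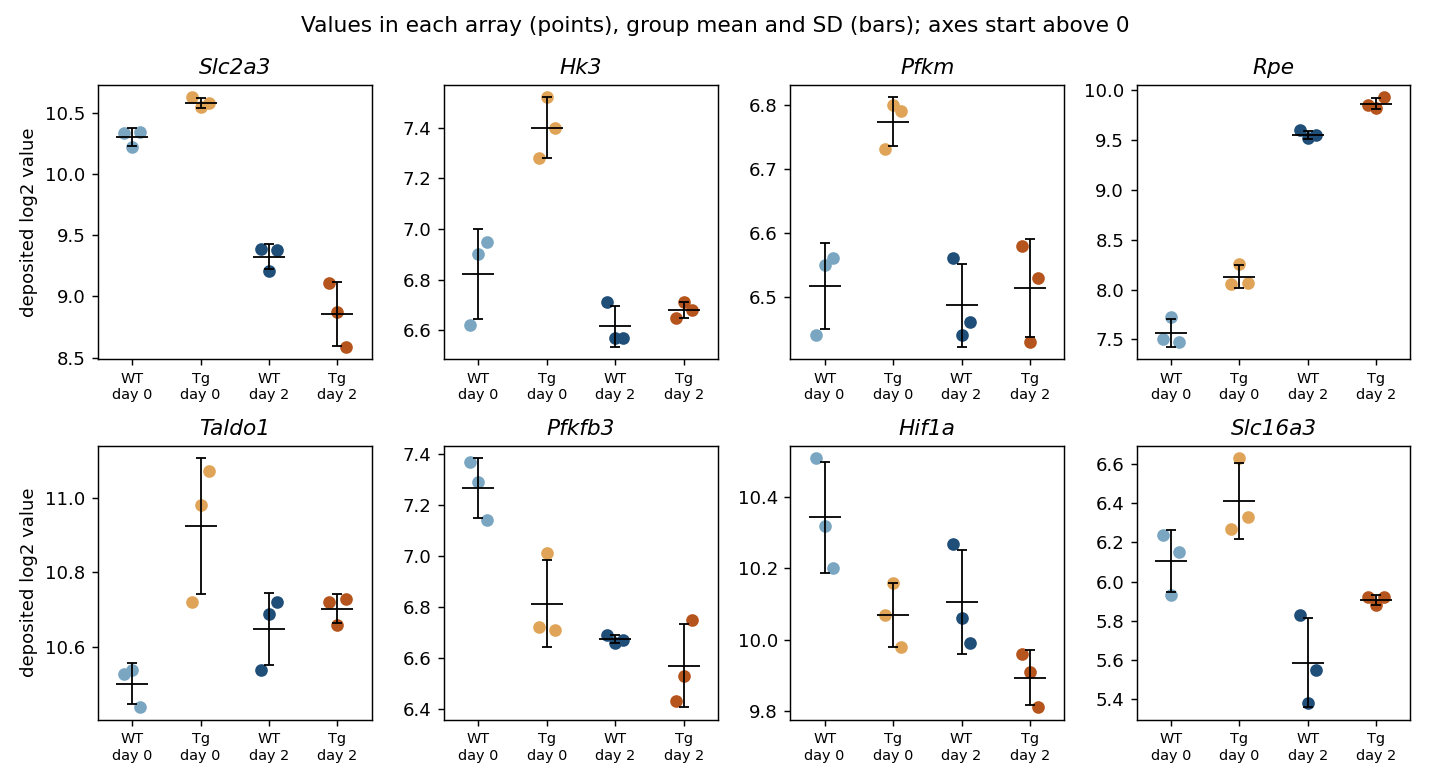
Deposited log2 value in each of the 12 arrays (points) with the group mean and SD (bars) for 8 members: the 6 called between genotypes or in the interaction, Hif1a and Slc16a3. For Hk3, Rpe, Taldo1 and Pfkm every transgenic day 0 array lies above every wild type one, and Slc2a3 is higher in transgenic arrays at day 0 and lower at day 2.

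After stimulation no member passed between the genotypes by limma, where transgenic cells had 1.24% of all genes called higher and 1.1% lower. Of the 32 genes 3 had an unadjusted p under 0.05, a count with no share over all genes computed. The median difference was −0.013, against 0 over all genes. Slc2a3 was nearest, at −0.47 ± 0.11 (limma adjusted p = 0.055). With the replicate number as a block it was called (0.0438), as it was without replicate 1 of unstimulated wild type (−0.47, 0.0456) or replicate 1 of stimulated transgenic cells, and its second bright probe set was called lower in the fit without a block (−0.37, 0.0371). Over the 75 probe sets this was the only call (1.33%, against 1.86% of all probe sets). Rpe stayed apart at day 2 (0.31 ± 0.086), which did not pass (0.109). At day 2, 3 of 13 granulocyte and 4 of 14 macrophage markers and 6 of 10 plasma cell markers were higher in transgenic arrays, and their part was not tested.

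The change with stimulation differed between genotypes for Slc2a3 alone among the 32 genes. Its fall was 0.75 ± 0.16 deeper in transgenic cells (transgenic minus wild type −0.75, limma interaction, adjusted p = 0.0338), where 0.588% of all genes were called positive and 1.39% negative. Its second bright probe set gave −0.56 (0.0301), making 2 of 75 probe sets (2.67%, against 1.58% of all probe sets). The call held without replicate 1 or 3 of unstimulated wild type or replicate 1 or 3 of stimulated transgenic cells, and was lost without each of the other 8 arrays, with values from −0.88 to −0.62 and adjusted p from 0.0111 to 0.0895. An unadjusted p under 0.05 was found for 7 members, Hk3 among them (−0.51 ± 0.14, limma adjusted p = 0.094). The share of all genes at that unadjusted threshold was not computed. The median over the 32 genes was −0.14, against −0.01 over all genes. Of the markers of other cells, 11 of 13 granulocyte, 5 of 14 macrophage and 5 of 9 erythroid markers were also called negative in this contrast, and their part in it was not tested.

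**Figure D5:**
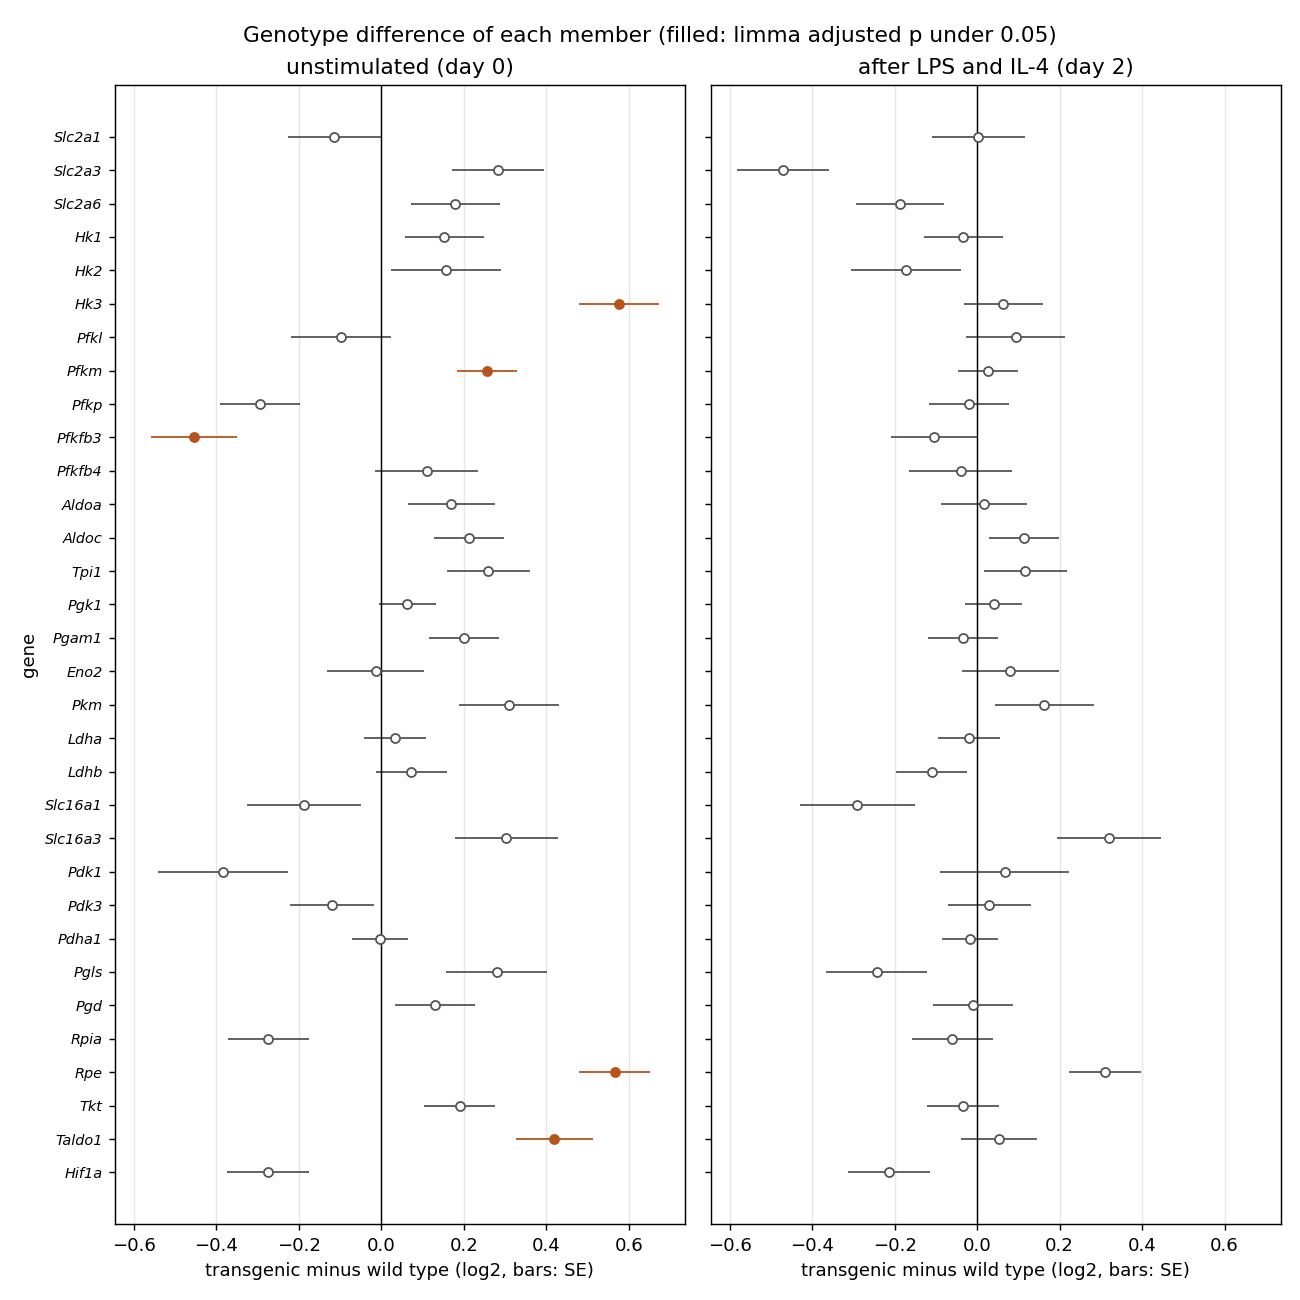
Transgenic minus wild type difference (log2, horizontal axis, bars are SE) of each member at day 0 (left panel) and day 2 (right panel), filled where called. At day 0 Hk3 (0.58), Rpe (0.57), Taldo1 (0.42) and Pfkm (0.26) lie to the right and Pfkfb3 (−0.45) to the left, and at day 2 Slc2a3 (−0.47) lies farthest to the left.

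Other genes of the same pathways, from lists written from general knowledge, changed in both directions with stimulation. For these lists and those below, 36% of all genes were called higher and 24% lower in wild type. The shares in transgenic cells were 35.2% and 23.3%. Of 8 further sugar transporters 3 rose and 1 fell in wild type and 2 and 1 in transgenic cells, and 1 of these calls, Slc2a4 in wild type (0.84), held on all 3 scalings. Of 18 other glycolytic and linked enzymes 6 rose and 2 fell in wild type and 9 and 3 in transgenic cells. Eno3, the muscle enolase, fell by 1.18 and 1.39 on all scalings. Bpgm, which makes the oxygen-affinity regulator of red cells, 2,3-bisphosphoglycerate, was higher in transgenic cells at day 0 (0.97, limma adjusted p = 0.000164). It fell there by 1.02 with stimulation and changed by −0.01 in wild type (limma interaction −0.84, adjusted p = 0.018). Erythroid markers were also higher in transgenic arrays at day 0, and their part in the Bpgm differences was not tested. Minpp1, a phosphatase of inositol phosphates and of that metabolite, was lower in transgenic cells at day 0 (−0.33, 0.0454) and rose by 0.59 and 1.04.

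Of 17 other pyruvate and lactate genes 8 rose and 4 fell in wild type and 7 and 5 in transgenic cells. The pyruvate dehydrogenase components Pdhx (1.43 and 1.48) and Dlat (1.31 and 1.18) and the activating phosphatase Pdp2 (1.61 and 1.58) rose on all 3 scalings, and the kinase Pdk2 fell by 0.97 and 1.15. Slc16a7, the monocarboxylate transporter MCT2, fell by 2.08 and 1.89 while Slc16a1 rose. Emb, an ancillary protein of monocarboxylate transporters, was higher in transgenic cells on both days, by 1.61 ± 0.12 (limma adjusted p = 2.99e-06) and 1.02 ± 0.12 (0.000363). That was the largest genotype difference among the pathway genes listed here. The part of the other cells, whose markers were also higher in transgenic arrays, was not tested. Of 7 other pentose phosphate genes 3 rose and 3 fell in each genotype, and Prps1, which makes the ribose donor for nucleotides, rose by 0.78 and 0.60 on all scalings.

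In the HIF pathway, 3 of 12 genes rose and 4 fell in wild type and 6 rose and 3 fell in transgenic cells. Egln3, a prolyl hydroxylase that marks HIF for destruction and is itself a HIF target, was higher in transgenic cells at day 2 (0.71 ± 0.12, limma adjusted p = 0.00903; interaction 0.81, 0.0398), while Egln1, the main such hydroxylase, was lower (−0.38, 0.0116). Vhl, the substrate receptor of the HIF ubiquitin ligase, was lower at day 0 (−0.47, 0.0196). Of 13 known HIF-1 targets outside glycolysis 6 rose and 2 fell in wild type and 8 and 1 in transgenic cells. Over all genes 36% were called higher and 24% lower in wild type, and 35.2% and 23.3% in transgenic cells. Mif, a cytokine (2.14 and 1.90), Adm, a vasodilator peptide (1.69 and 1.36), Higd1a, a mitochondrial protein (1.31 and 1.37), and Bnip3, a mitophagy receptor (0.95 and 1.31), rose on all scalings.

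Of 18 other regulators of glucose use 6 rose and 8 fell in wild type and 5 and 5 in transgenic cells, beside the shares of all genes given above. Txnip, which holds back glucose uptake, fell by 3.86 and 3.41, and its relative Arrdc4 by 1.52 and 1.87. Mlxip, a glucose-sensing factor known to activate both, fell by 1.71 and 1.04, and Myc by 1.25 and 1.67. Tfrc, the transferrin receptor, rose by 1.32 and 1.69. These 5 changes held on all 3 scalings in both genotypes. Between the genotypes at day 0, 1 of these 18 genes was higher and 4 were lower in transgenic cells. Over all genes 5.45% were called higher and 4.9% lower in that comparison. Arrdc4 was higher (0.53, limma adjusted p = 0.00396). Gsk3b (−0.74, 0.00165), Mlxip (−0.57, 0.00711) and Tfrc (−0.44, 0.0214) were among the 4 that were lower.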

How the data were processed

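In 12 RNA samples of B cells, probe sets were read on single-colour Affymetrix mouse genome arrays, with 4 µg of total RNA used per array. The authors deposited log2 values, 1 per probe set, made with RMA (affy package) as the submitters' processing notes state, without versions; the scale was checked on the values. No source used here says whether both days were normalized in 1 run, and the genome build behind the annotation is not given. The table has 45101 probe sets, of which 45037 were tested after removal of 64 array controls; the array annotation gave 1 symbol for 34945, several for 932 and none for 9160. Each gene was represented by its brightest probe set (mean of the 12 arrays) among those naming that gene alone.

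The fit used limma 3.58.1 in R 4.3.3, with 1 mean per group over all 12 arrays and the moderated test (8 residual and 4.71 prior degrees of freedom), 2-sided, with Benjamini-Hochberg adjustment over all tested probe sets and calls at an adjusted p under 0.05. Genotype differences and the interaction were fitted on deposited values, and stimulation changes on values quantile-normalized over the 12 arrays. Errors after ± are SE of a change, and 3 arrays a group limit the precision. The procedure was tested on simulated data.

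Members could all be named, with values of all arrays for those called between genotypes or in the interaction and for the 10 largest called stimulation changes; of each further list, up to 4 called genes with the largest change per contrast could be named. Slc16a3, Hif1a and Kcnip3 were given by array or range after their values were seen. The members and lists were chosen with earlier results of these data known.

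The labels name no pairing across groups. Deviations of same-numbered replicates from their group means correlated at 0.33, 0.101 and 0.178 between the genotypes at day 2. Between the days in wild type they correlated at 0.318, 0.175 and 0.19. Replicates of different number reached at most 0.057 and 0.098 there. In the other 2 comparisons some same-numbered replicates lay below 0.1. Whether the numbers pair samples is not settled. Replicate 1 read lowest in 5′ minus 3′ actin in every group. It read −2.22 in unstimulated and −1.36 in stimulated wild type cells, and −0.98 in stimulated transgenic cells. In unstimulated transgenic cells it read −0.63, close to the −0.54 of replicates 2 and 3. The part of RNA quality in these correlations was not tested. The unblocked fit was kept and the replicate block is an alternative. Other alternatives were median subtraction or quantile normalization, removal of dim probe sets, an intensity trend in the prior, the median of a gene's probe sets, a fit of only the groups compared, a threshold of 0.01 and leaving out each array.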

Additional observations from a re-analysis of the deposited data

Results flagged for a closer look

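The change of Slc2a3 with stimulation differed between the genotypes by a test of that difference. It was −0.75 ± 0.16 on the log2 scale (transgenic minus wild type, limma interaction, adjusted p = 0.0338), the only one of 32 members to pass. The cause was not tested.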

How the results depend on the processing

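The calls with stimulation were stable in number: leaving out 1 array gave 25 to 26 called members in wild type (26 with all arrays) and 25 to 27 in transgenic cells (26), and 20 and 19 of the called genes held under all 20 alternatives. Directions turned for some genes; the cause was not tested. As deposited, the wild type changes were −0.17 for Aldoc, −0.21 for Hk3, −0.34 for Ldhb, −0.03 for Pfkm and −0.52 for Slc16a3, and the transgenic ones −0.27 for Aldoc, −0.38 for Eno2, −0.24 for Pfkfb3, −0.26 for Pfkm and −0.50 for Slc16a3. With medians subtracted they were 0.38 for Hif1a, 0.22 for Slc2a1 and 0.76 for Taldo1 in wild type, and 0.46 for Hif1a, 0.56 for Pgls, 0.36 for Slc2a1 and 0.42 for Taldo1 in transgenic cells. With the median of a gene's probe sets they were 0.33 for Hif1a, −0.16 for Hk3 and −0.29 for Pdk1 in wild type and 0.098 for Hif1a in transgenic cells. On quantile-normalized values the day 0 count was 6, with Tpi1 and Pgam1 gained and Pfkm lost. With the median of a gene's probe sets, Slc2a3 (0.41, limma adjusted p = 0.00706) and Tkt (0.42, 0.0131) were gained at day 0. Pfkfb3 was lost there (−0.23, 0.113). The day 0 count of 5 was 2 at an adjusted p under 0.01 and 2 in a fit of only the groups compared, and ran from 2 to 9 when 1 array was left out. The day 2 count of 0 was 1, always Slc2a3, with medians subtracted, with dim probe sets left out and with an intensity trend, and 0 to 1 when 1 array was left out. The interaction count of 1 was 0 at an adjusted p under 0.01 and 0 to 3 when 1 array was left out (3 without replicate 3 of unstimulated wild type, which added Hk3 and Pgls).

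With the replicate block, the counts were 6 at day 0, 1 at day 2, 27 with stimulation in wild type and 27 in transgenic cells, and 1 in the interaction. At day 0 Pfkm was lost (limma adjusted p = 0.0597) and Hif1a (0.0493) and Rpia (0.0463) were gained. Pgls was gained as a fall with stimulation in transgenic cells (−0.27, limma adjusted p = 0.0483), where median subtraction called a rise (0.56). The block changed no other call of a member beside those of Slc2a3 and Pgls in wild type. Signal near background limits Eno2, which was left out with the dim probe sets, leaving 31 genes, and 3 arrays a group limit every difference.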
